A study of Homo sapiens with 24 samples.

Results

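The genes described here are 10 members of the MYC network: MYC, MYCL, MAX, MXD1, MXD3, MXD4, MXI1, MNT, MGA and MLX. They were found by mapping the gene identifiers of the deposited gene-body count table, without version, to symbols in GENCODE release 44. They are 10 of the 54335 genes of the table. The counts come from mNET-seq, in which RNA Pol II is immunoprecipitated and its nascent RNA sequenced. The cells are U2OS, a human osteosarcoma line labelled as wild type. Irradiated cells received 10 Gy of ionizing radiation (IR), and nonirradiated cells received none. From both, RNA Pol II was precipitated with an antibody to its C-terminal domain phosphorylated on tyrosine 1 (Y1P), serine 2 (S2P) or serine 5 (S5P), which gives 6 groups of 2 libraries. All groups share the same single cell line and growth medium. The labels give 10 min for the irradiation step, whereas the methods of the study give a longer time after IR, so the interval between IR and collection is uncertain.

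MYC and MYCL are transcription factors that bind the E-box CACGTG as dimers with MAX and activate genes of cell growth, ribosome production and metabolism. MXD1, MXD3, MXD4, MXI1, MNT and MGA also dimerize with MAX at such sites but mostly repress, the first 5 by recruiting the SIN3 corepressor and MGA within a noncanonical Polycomb complex. MLX resembles MAX and pairs with the glucose-sensing factors MLXIP and MLXIPL, and also with MXD1, MXD4 and MNT, so that the level of each partner bears on which dimers can form.

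Because the factors of this network share the E-box, the promoters of their own genes were searched for CACGTG, which reads the same on both strands. RefSeq promoters of GRCh38.p14, from 250 bases before to 50 after the start, were matched to 9 members, all but MYC. The motif was present in 3 of these 9 and in 2396 of 27305 genes, 8.77%. The windows around the 3 matches are shown 5′ to 3′ on the strand of the gene, with the E-box in capitals.
MXD4: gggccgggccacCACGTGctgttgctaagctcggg
MNT: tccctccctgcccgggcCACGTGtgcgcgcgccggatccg
MLX: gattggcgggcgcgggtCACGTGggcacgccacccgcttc
The MXD4 window is chr4:2262325-2262359 on the minus strand, with the E-box starting at position -238 relative to the gene start in RefSeq, which is also the GENCODE start. The MNT window is chr17:2401231-2401270 on the minus strand, with the E-box at -193 from the RefSeq start and -149 from the GENCODE start. The MLX window is chr17:42567033-42567072 on the plus strand, with the E-box at -50 from the RefSeq start and -22 from the GENCODE start. The match says only that these letters occur, and binding was not measured.

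The values are counts over the gene body (GB), from 200 bp downstream of the TSS to the TES, on the annotated strand. In GENCODE coordinates of GRCh38, MYC (ENSG00000136997.21) lies on chromosome 8 from 127735434 to 127742951 on the plus strand, MYCL (ENSG00000116990.11) on chromosome 1 from 39895428 to 39902256 on the minus strand and MNT (ENSG00000070444.15) on chromosome 17 from 2384073 to 2401104 on the minus strand. MXD4 (ENSG00000123933.17) lies on chromosome 4 from 2247432 to 2262109 on the minus strand and MGA (ENSG00000174197.18) on chromosome 15 from 41621134 to 41773081 on the plus strand. The members range in length from 6168 bp for MLX to 151948 bp for MGA. Reads that overlap another gene body were left out by the authors, which affects MXD3, of whose GB 20.6% is shared with RAB24 on the same strand, and MXD1, of whose GB 17.1% is shared with SNRNP27. The GB of MYC overlaps CASC11, and that of MYCL overlaps MYCL-AS1, on the opposite strand, whose reads were counted apart.

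Libraries held 16220773 to 33144659 counts, with scaling factors (TMM) of 0.835 in nonirradiated Y1P replicate 2 to 1.093. All 10 members passed the filter on low counts, as did 21246 genes in all. Of 9 genes listed to check the irradiation, CDKN1A and BBC3 rose and the immediate early genes FOS and EGR1 fell with all 3 antibodies, BTG2 and GDF15 rose with Y1P, and MDM2, SESN1 and PLK3 did not pass with any. CDKN1A, the p53-induced cell cycle inhibitor, had log2FC of 1.10, 0.82 and 0.93 with Y1P, S2P and S5P, at edgeR adjusted p of 0.000363, 0.00583 and 0.00269. Of 11 genes of the mesenchymal and osteoblast lineage, RUNX2, VIM, SPARC, COL1A1 and CDH2 were at a median of 48.6 to 573.7 CPM (the count relative to the scaled library size). TWIST2 was at 10.3 CPM, ALPL at 3.30, SP7 at 0.521, TWIST1 at 0.462 and COL1A2 at 0.246 CPM. The late osteoblast gene BGLAP was at 0 in all 12 libraries. Since reads that overlap another gene body were left out, a count of 0 does not show that BGLAP is silent. Of 12 genes of other lineages, EPCAM, CDH1 and PTPRC had a median of 3.64 to 6.06 CPM and the other 9 no more than 0.379 CPM. Of the lineage genes tested, ALPL alone was called (log2FC of 0.72 with Y1P, adjusted p = 0.0456). The study calls its replicates biological. Whether the replicate numbers of the table are those, or came from separate cultures, is not stated. The spread behind the p-values is thus that between these libraries and may be technical. The study describes more replicates than there are replicate numbers in the table, and how they relate is not given.

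MYC had the highest GB signal per length of the 10 genes. It was at a median of 9.50 CPM per kb over the 12 libraries (7.60 to 11.3), above MNT in every library, and MNT followed with a median of 2.52 CPM per kb (1.54 to 3.04). MGA had a median of 1.45 CPM per kb and MXD3 of 1.39, and their order held in 8 of 12 libraries, so that they did not differ beyond their spread on this measure. The length used is that of the whole GB. The values of MXD3 and MXD1, whose shared parts were not counted, are therefore too low by an unknown amount, and their ranks are uncertain. MLX (median 0.710) and MXD4 (0.662) were each higher in 6 libraries. MAX, the shared partner of the network, had a median of 0.557 CPM per kb and MXI1 of 0.527, with MAX above MXI1 in 6 libraries. MYCL had a median of 0.404 CPM per kb and MXD1 the lowest, 0.263, with MYCL above MXD1 in 11 of 12 libraries. MAX varied least, with a highest library 1.18 times its lowest, and MYCL most, with 2.39 times, at 35 to 99 counts per library, the fewest of any member. MLX had 64 to 175 counts, whereas MGA had 3605 to 8127.

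**Figure D1:**
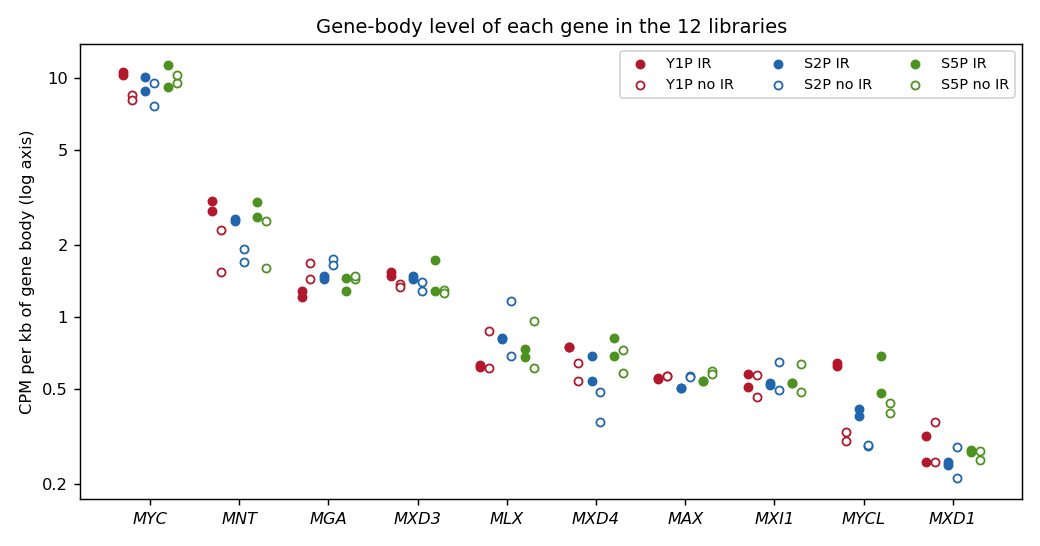
GB signal of the 10 MYC network genes in CPM per kb (log axis), with 1 point per library, irradiated filled and nonirradiated open, colored by antibody. MYC lies above all others in every library, and the lowest genes are MYCL and MXD1.

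The first comparison asked how GB signal of Y1P RNA Pol II changed upon IR. MYCL and MNT rose and MGA fell, and the other 7 members did not pass the test (edgeR adjusted p under 0.05 over all genes and log2FC beyond 0.1 in either direction). Rises and falls are relative to the other genes. Values are scaled to library size, so a change shared by all genes would not be seen. At an unadjusted p under 0.05 in edgeR there were 5 members. Of all 21246 genes tested, 3091 had such a p with a positive and 3033 with a negative log2FC. Among all genes tested 4.38% were called higher and 4.28% lower, 8.66% in all, and the members' median log2FC of 0.12 stood beside 0.02 for all genes and -0.04 for protein-coding genes. So few genes allow no statement on whether their share of calls differs from this background.

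MYCL, a paralog of MYC with narrower expression, had 4.13 and 4.24 CPM in the irradiated Y1P libraries, against 2.19 and 2.01 CPM in the nonirradiated ones. The irradiated libraries lay above the nonirradiated ones with no overlap. The log2FC was 0.99 (SE 0.24, 95% interval 0.48 to 1.497, edgeR adjusted p = 0.0297). These values rest on 87 and 90 counts in irradiated and 50 and 35 counts in nonirradiated libraries.

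MNT, the most widely expressed of the MAX partners that oppose MYC, had 46.4 and 51.1 CPM in the irradiated Y1P libraries, against 38.7 and 26.0 CPM in the nonirradiated ones. The groups did not overlap, but nonirradiated replicate 2 was well below its fellow, so that the 2 pairs differed by 0.26 and 0.98 on the log2 scale. The log2FC was 0.61 (SE 0.15, 95% interval 0.29 to 0.93, edgeR adjusted p = 0.0319). The low library is also the one with the smallest scaling factor. Before scaling it was at 21.7 CPM, against 38.9 CPM in its fellow, and MNT was called with each of the other scalings (log2FC of 0.57 to 0.81). All of these scalings include the low library. With S2P and S5P, too, nonirradiated replicate 2 had the lowest MNT value (28.5 and 26.9 CPM), at scaling factors of 0.942 and 0.969. The cause of these low values was not tested.

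MGA, a large scaffold protein with both a bHLH and a T-box domain, had 195.1 and 183.1 CPM in the irradiated Y1P libraries, against 218.5 and 253.7 CPM in the nonirradiated ones. Both irradiated values were below both nonirradiated values, and nonirradiated replicate 2 was again the most distant. The log2FC was -0.32 (SE 0.09, 95% interval -0.52 to -0.12, edgeR adjusted p = 0.0493), close to the threshold.

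MYC itself had 75.1 and 77.5 CPM in the irradiated Y1P libraries, against 61.9 and 59.3 CPM in the nonirradiated ones. The groups were apart and the replicates of each close together. Nevertheless, the log2FC of 0.33 (SE 0.12) had an adjusted p of 0.101 and was not called. MXD4, a MAX partner linked to differentiated cells, had 10.9 and 10.8 CPM in irradiated and 9.25 and 7.81 CPM in nonirradiated libraries, with a log2FC of 0.35 (SE 0.14, adjusted p = 0.130). Likewise, its groups did not overlap, yet the difference did not pass.

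Of the remaining members with Y1P, MXD3 had a log2FC of 0.16, MXI1 of 0.07, MAX of -0.04, MXD1 of -0.11 and MLX of -0.23, with adjusted p from 0.447 to 0.818. MAX was nearly the same in all 4 Y1P libraries, at 53.3 and 53.2 CPM in irradiated and 54.7 and 54.5 CPM in nonirradiated ones, and the sign of its log2FC turned with upper quartile scaling (0.025) and with library totals alone (0.16). In all, irradiated libraries lay above nonirradiated ones without overlap for 5 members (MYC, MYCL, MXD3, MXD4 and MNT), as for 26.4% of all genes, and below them for MAX and MGA, as for 22.4%.

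Without Y1P replicate 2, none of the 3 calls remained: MYCL had a log2FC of 0.95 (edgeR adjusted p = 0.416), MNT of 0.30 (0.521) and MGA of -0.13 (0.643), while the calls over all genes dropped to 2 higher and 7 lower. Without Y1P replicate 1, MNT (0.96, adjusted p = 0.00678) and MGA (-0.49, 0.0143) were called and MYCL was not (1.06, 0.0516). In a fit without the replicate block the 3 genes had adjusted p of 0.119, 0.156 and 0.152, with log2FC of 0.99, 0.59 and -0.32.

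**Figure D2:**
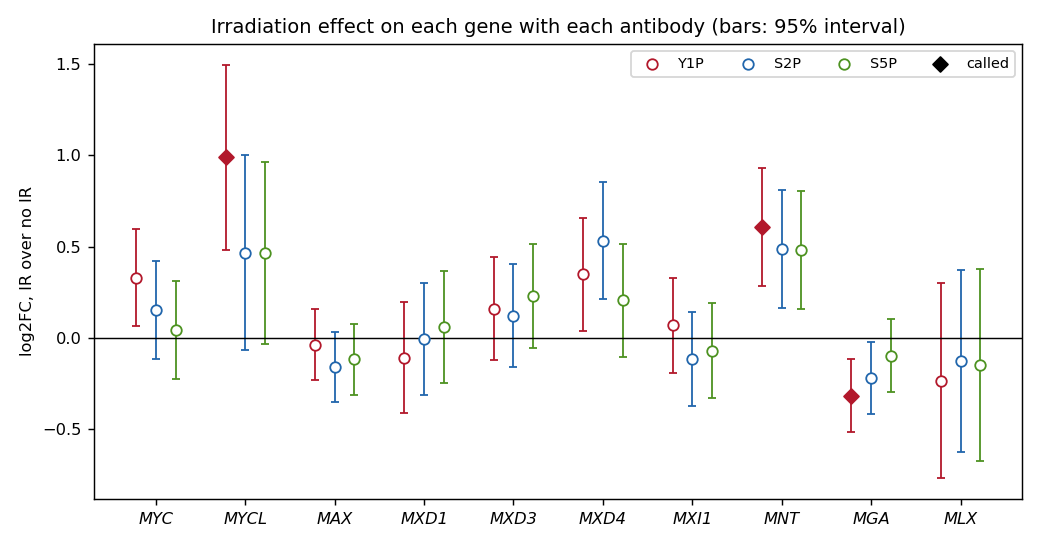
Log2FC of the GB signal, IR over no IR, of each gene (x axis) with Y1P, S2P and S5P, with bars for the 95% interval from the edgeR fit and filled diamonds for called genes. MYCL (0.99), MNT (0.61) and MGA (-0.32) are the called values, all with Y1P.

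S2P RNA Pol II is the form associated with elongation. With this antibody no member was called, where 0.0988% of all genes were (0.0141% higher and 0.0847% lower), and 1765 genes had an unadjusted p under 0.05 with a positive and 1996 with a negative log2FC. Of the members, MXD4, MNT and MGA, 3 in all, had an unadjusted p under 0.05 in edgeR. DESeq2 on the same libraries called 0 and gave no adjusted p for 8. The largest difference among the members was that of MXD4, which had 9.93 and 7.79 CPM in irradiated and 6.995 and 5.25 CPM in nonirradiated libraries. Irradiated libraries lay above nonirradiated ones, and both pairs differed by a similar amount. The log2FC was 0.53 (SE 0.15), with an edgeR adjusted p of 0.151.

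MNT had 42.4 and 43.0 CPM in irradiated S2P libraries, against 32.4 and 28.5 CPM in nonirradiated ones, a log2FC of 0.49 (SE 0.15, adjusted p = 0.165). The 2 irradiated libraries were almost equal. MGA had 224.7 and 218.3 CPM in irradiated and 265.4 and 250.8 CPM in nonirradiated S2P libraries, a log2FC of -0.22 (SE 0.09, adjusted p = 0.245), and the groups did not overlap. MYCL had 2.74 and 2.56 CPM in irradiated and 1.90 and 1.94 CPM in nonirradiated libraries, a log2FC of 0.47 with an adjusted p of 0.337.

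MYC had 73.9 and 64.3 CPM in irradiated S2P libraries, against 55.6 and 69.4 CPM in nonirradiated ones, and the groups overlapped, with a log2 difference of 0.41 for replicate 1 and -0.11 for replicate 2. The log2FC was 0.15 (95% interval -0.11 to 0.42, adjusted p = 0.522). MAX had 48.6 CPM in both irradiated libraries and 54.4 and 54.0 CPM in nonirradiated ones, a log2FC of -0.16 (adjusted p = 0.365) that was 0.013 with library totals alone. The other 4 members had log2FC of -0.13 to 0.12. In all, 4 members lay above without overlap (MYCL, MXD3, MXD4 and MNT), as did 22.8% of all genes, and MAX and MGA below, as did 18.8%.

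S5P RNA Pol II is the form associated with initiation and the early gene body. Here too no member was called, against 0.0518% of all genes (0.00941% higher and 0.0424% lower), with 1449 and 1020 genes at an unadjusted p under 0.05 and a positive and a negative log2FC. MNT was the only member with an unadjusted p under 0.05 in edgeR, and DESeq2 on the same libraries called 0. MNT had 50.8 and 44.02 CPM in irradiated S5P libraries, against 42.3 and 26.9 CPM in nonirradiated ones. The groups did not overlap, and the second nonirradiated library was again the lowest of the 4. The log2FC was 0.48 (SE 0.15), with an edgeR adjusted p of 0.296.

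MYC had 83.0 and 67.0 CPM in irradiated S5P libraries, against 69.7 and 74.9 CPM in nonirradiated ones, so that the nonirradiated values lay between the irradiated ones. The log2FC was 0.04 (95% interval -0.22 to 0.31). MYCL had 4.55 and 3.20 CPM in irradiated and 2.62 and 2.89 CPM in nonirradiated libraries, a log2FC of 0.47 (adjusted p = 0.448), and MAX had 51.8 CPM in both irradiated and 57.2 and 55.3 CPM in nonirradiated ones, a log2FC of -0.12 (adjusted p = 0.610). The remaining 6 members had log2FC between -0.15 (MLX) and 0.23 (MXD3). MYCL and MNT lay above without overlap, as did 21.6% of all genes, and MAX below, as did 19.3%.

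**Figure D3:**
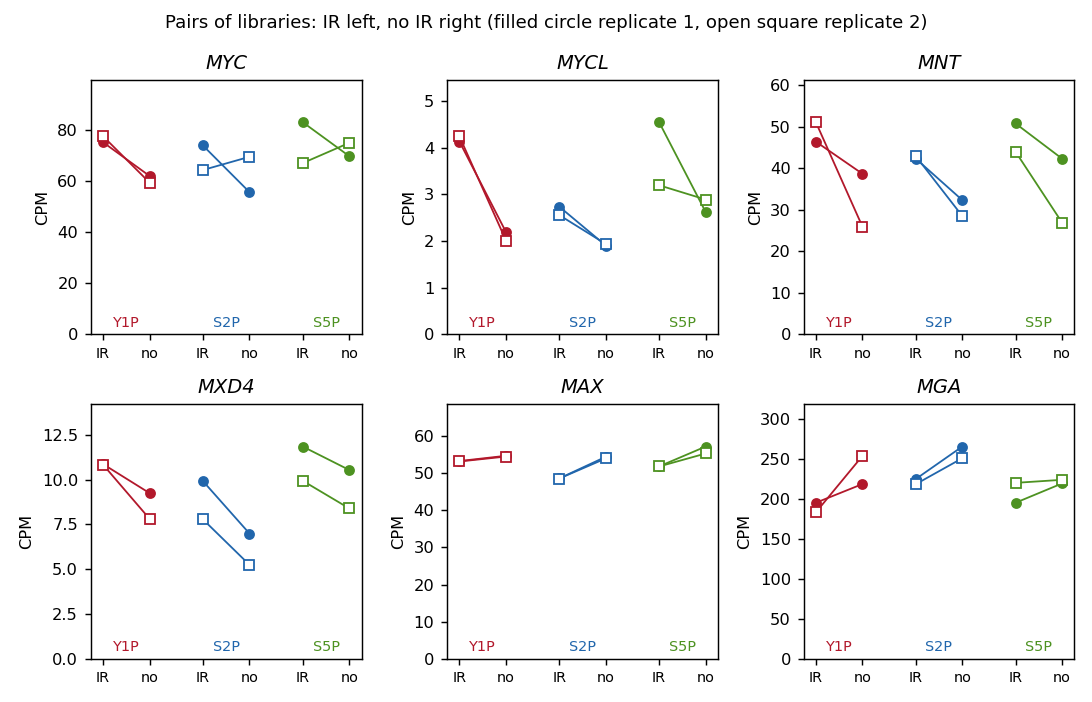
CPM of 6 MYC network genes in the 6 pairs of libraries, irradiated left and nonirradiated right within each antibody, with lines joining libraries of the same replicate number. The lines of MYCL, MNT and MXD4 have their higher end at IR in every pair and those of MAX and MGA at no IR (the fitted sign of MAX turned with Y1P and S2P under library totals alone), whereas those of MYC run in opposite directions with S2P and S5P.

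Over the 3 antibodies, 4 members were higher in the irradiated library of all 6 pairs: MYCL (log2 differences of 0.15 to 1.08), MNT (0.26 to 0.98), MXD4 (0.17 to 0.57) and MXD3 (0.039 to 0.42). MAX (-0.16 to -0.036) and MGA (-0.47 to -0.024) were lower in all 6, although the fitted log2FC of MAX turned positive with Y1P and S2P when scaled by library totals alone. Among all genes tested, 12.3% were higher and 14.1% lower in every pair, and the libraries of the 3 antibodies may stem from the same cells. MYC was higher in 4 of the 6 pairs. MLX split by replicate number, with log2 differences of 0.044 to 0.27 in the 3 pairs of replicate 1 and -0.52 to -0.49 in the 3 pairs of replicate 2. Its CPM in irradiated libraries ranged from 3.68 to 4.88, whereas nonirradiated replicate 2 had 5.23 to 6.98 CPM and nonirradiated replicate 1 had 3.64 to 4.09 CPM. MXI1 was also divided, with 4 pairs higher, and MXD1 had 2 pairs higher.

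The third question was whether the response to IR differed between antibodies, tested as interaction terms of the same edgeR fit. No member passed, where 0% of all genes were called for S2P minus Y1P and for S5P minus Y1P and 0.00471% for S5P minus S2P. At an unadjusted p under 0.05, these contrasts held 661, 1569 and 921 of all genes and 0 members, and DESeq2 on the same libraries called 0 members. The response of MYCL was smaller with S2P than with Y1P by a log2 difference of -0.52 (95% interval -1.26 to 0.22, adjusted p = 1) and with S5P than with Y1P by -0.52 (-1.24 to 0.19, adjusted p = 0.696). For MYC, S5P minus Y1P was -0.29 (95% interval -0.66 to 0.09, adjusted p = 0.693). For MNT the responses with S5P and S2P differed by -0.0036 (95% interval -0.46 to 0.45). These intervals are wide, and calls made with Y1P alone do not show that MYCL, MNT or MGA responded otherwise with S2P or S5P.

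The antibodies themselves were compared at the same IR state, at a log2FC beyond 1 in either direction and an adjusted p under 0.05. No member was called in any of the 6 comparisons by edgeR, or by DESeq2 on the same libraries. From 0 (S5P over Y1P with IR) to 3 members had an unadjusted p under 0.05 in edgeR. Of all 21246 genes tested, 1422 (S5P over Y1P without IR) to 7707 (S2P over Y1P with IR) had such a p. Between S2P and Y1P, 3.88% of all genes were called in irradiated and 1.09% in nonirradiated cells, between S5P and Y1P 0.264% and 0%, and between S5P and S2P 0.0847% and 0%. MYCL in irradiated cells was nearest, with 2.74 and 2.56 CPM with S2P against 4.13 and 4.24 CPM with Y1P. The log2FC was -0.66 (SE 0.21, edgeR adjusted p = 0.0269), which passed the p threshold but not that on size. MXD4 in nonirradiated cells had 10.5 and 8.39 CPM with S5P, against 6.995 and 5.25 CPM with S2P, a log2FC of 0.63 (adjusted p = 0.0702), and S2P over Y1P was -0.48 (adjusted p = 0.0511). The signal of MAX differed by at most 0.13 in size on the log2 scale between any pair of antibodies.

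The response of protein-coding genes with Y1P varied with gene length. Those under 10 kb had a median log2FC of 0.27, with 230 of 2279 called higher and 22 lower, whereas those over 100 kb had a median of -0.17, with 23 of 3518 called higher and 354 lower. MYCL (6829 bp) and MYC (7518 bp) are in the shortest class and MGA in the longest, with log2FC on the side of their class. MLX (6168 bp) had a log2FC of -0.23, on the other side of 0 from its class. MNT (17032 bp) and MXD4 (14678 bp) are in the class of 10 to 50 kb, whose median was 0.02, and both had a higher log2FC than that median. With the length trend of each library removed in the fit with the replicate block, the log2FC with Y1P was 0.69 for MYCL (adjusted p = 0.0888), 0.45 for MNT (0.0638), -0.25 for MGA (0.239) and 0.044 for MYC (0.875), and none was called.

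**Figure D4:**
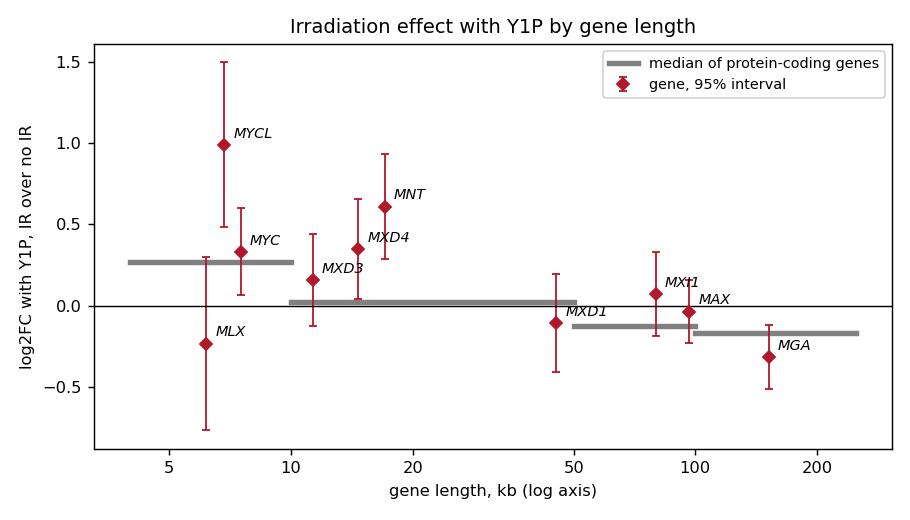
Log2FC with Y1P, IR over no IR, of each gene against its length (log axis), with bars for the 95% interval and gray lines for the median of protein-coding genes in 4 length classes. Class medians run from 0.27 under 10 kb to -0.17 over 100 kb, and MYCL and MNT lie furthest above theirs.

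Of the rest of the network, 9 genes were tested and none was called with any antibody, with 3, 1 and 2 at an unadjusted p under 0.05 with Y1P, S2P and S5P. Of all 21246 genes tested, 6124, 3761 and 2469 had such a p, a background that holds for the lists below too. The 9 genes include MYCBP2, a ubiquitin ligase that binds MYC (log2FC of -0.26 with Y1P, adjusted p = 0.0645), and the E-box factors TFAP4 (0.29, adjusted p = 0.122) and USF2 (0.23, adjusted p = 0.169). MLXIP and MLXIPL, the partners of MLX, had -0.05 and 0.07. Both tested targets of the MLXIP and MLX dimer, ARRDC4 (0.46) and TXNIP (0.10), had few counts and adjusted p of 0.582 and 0.915.

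Of 22 genes whose products assist MYC or control its turnover, 3 fell and none rose upon IR with Y1P, and 18 were below 0, with a median of -0.21. Among all genes tested, 4.28% were called lower and 4.38% higher, and the median of protein-coding genes was -0.04. Those that fell were USP28, a deubiquitinase that stabilizes MYC (-0.35, adjusted p = 0.0338), HUWE1, a ubiquitin ligase of MYC (-0.31, adjusted p = 0.0491), and AURKA, a kinase that protects MYCN from degradation (-0.36, adjusted p = 0.0491). With S2P and S5P none passed (5 and 4 at an unadjusted p under 0.05), and AURKA had log2FC of -0.49 and -0.42. HUWE1 is 154.657 kb long and USP28 77.699 kb, both in classes with a negative median, whereas AURKA is 22.949 kb long, in the class with a median of 0.02.

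Of 20 genes of the SIN3 corepressor, through which the MXD proteins and MNT act, 3 fell and 1 rose with Y1P, with a median of -0.17. The shares of all genes were 4.28% lower and 4.38% higher. ARID4B (-0.42, adjusted p = 0.0262), SAP130 (-0.31, adjusted p = 0.0390) and the histone demethylase KDM5A (-0.32, adjusted p = 0.0401) were lower, and ING1, a reader of histone methylation (0.50, adjusted p = 0.0351), was higher. ARID4B (196.586 kb), KDM5A (109.264 kb) and SAP130 (86.904 kb) are in length classes with a negative median with Y1P, and ING1 (10.604 kb) in that with a median of 0.02. The median of the list was -0.12 with S2P and 0.0035 with S5P, and no gene was called (3 and 1 at an unadjusted p under 0.05).

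MGA scaffolds the Polycomb complex PRC1.6, and of its 13 partners 2 fell with Y1P and none rose, with a median of -0.19. The shares of all genes were 4.28% lower and 4.38% higher. PCGF6, the Polycomb ring finger protein that defines this complex, had a log2FC of -0.73 (adjusted p = 0.0192), and YAF2 had -0.37 (adjusted p = 0.0238). YAF2 is 81.246 kb long, in a class with a negative median with Y1P, and PCGF6 48.349 kb, in the class with a median of 0.02. For PCGF6 the log2FC was -0.46 with S2P and -0.16 with S5P, at adjusted p of 0.153 and 0.639. E2F6, the DNA-binding partner of MGA in the complex, had 0.08 with Y1P. HDAC1, HDAC2 and WDR5 are in more than 1 of these lists.

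Of 37 tested MYC target genes, 26 were below 0 with Y1P, with a median of -0.10, beside -0.04 for protein-coding genes. Among all genes tested 4.28% were called lower and 4.38% higher, and of these 37 none rose and 6 fell. They were the transferrin receptor TFRC (-0.47, adjusted p = 0.0178), the ribosome assembly genes WDR43 (-0.49, adjusted p = 0.0309), RRP12 (-0.38, adjusted p = 0.0306) and UTP20 (-0.34, adjusted p = 0.0428), the translation factor EIF4E (-0.42, adjusted p = 0.0330) and CAD, an enzyme of pyrimidine synthesis (-0.35, adjusted p = 0.0431). UTP20 (106.514 kb), RRP12 (69.719 kb), TFRC (69.643 kb) and WDR43 (53.553 kb) are in length classes with a negative median with Y1P. EIF4E (49.858 kb) and CAD (26.575 kb) are in the class with a median of 0.02. The largest log2FC of the list in size were positive and not called, those of CCND2 (1.03), RRS1 (0.95) and HSPE1 (0.84). Their edgeR adjusted p were 0.0628, 0.0757 and 0.127, and they had only 278, 493 and 287 counts over all libraries. RRS1 (1.72 kb) and HSPE1 (3.31 kb) are in the class under 10 kb, with a median of 0.27. CCND2 (35.583 kb) is in that with a median of 0.02. NCL (0.20) and NPM1 (-0.09), both abundant nucleolar proteins, did not pass. The medians with S2P and S5P were both -0.02, and no gene was called (9 and 8 at an unadjusted p under 0.05). These lists, too, were set against 4.28% of all genes called lower with Y1P and were not tested as sets.

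Around MYC on 8q24, 5 of 8 listed genes were tested and none was called, with 2, 2 and 0 at an unadjusted p under 0.05 with Y1P, S2P and S5P. Of all 21246 genes tested, 6124, 3761 and 2469 had such a p. CASC11, which is transcribed from the opposite strand across the start of MYC, had a log2FC of 0.54 with Y1P (adjusted p = 0.0610), 0.51 with S2P (0.203) and 0.16 with S5P (0.734). PVT1, the lncRNA downstream of MYC, had -0.28 with Y1P (adjusted p = 0.104), -0.29 with S2P (0.205) and -0.16 with S5P (0.557). CASC8, another lncRNA of this region, had 0.53 with Y1P (adjusted p = 0.203).

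The 5 protein-coding genes whose CPM over the 12 libraries was most like that of MYC, of 11661 compared, were ENSG00000273269 (Pearson's r of 0.908 on the log2 scale), CYP2U1 (0.893), MAD2L1 (0.893), C11orf24 (0.879) and STK16 (0.867). These libraries share replicate numbers, antibodies and IR, and the values describe these libraries alone.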

How the data were processed

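The deposited file holds raw read counts of each gene body (GB), as the authors obtained them. Per the methods of the study and its processing notes, adapters were trimmed with cutadapt (version 1.8.3 in the notes), reads were aligned to hg38 with STAR, unique reads were kept with SAMtools, reads from internal priming and duplicates were removed, and featureCounts counted reads on the annotated strand. The gene annotation used for counting is not given in the sources used here. Of 55399 entries, 1022 repeated ones without counts and 42 copies on the pseudoautosomal regions of chromosome Y, with 2 counts in all, were left out. The table has 24 runs, which the sample titles place in 2 batches without saying what a batch marks. That the 2 runs of a replicate number in a group are of the same library was inferred from the counts. Runs of the same replicate number were summed into 12 libraries, since they differed by little more than sampling noise (chi-square divided by its degrees of freedom was 1.06 to 1.096, against 8.95 to 61.2 between replicate numbers). This chi-square treats reads as independent, although mNET-seq reads carry no stated molecular identifiers.

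Counts were fitted with edgeR 4.0.16 (filterByExpr, TMM, quasi-likelihood test) in R 4.3.3, with all 12 libraries in 1 fit, a term per group and, within an antibody, a block for the replicate number, whereas the study used DESeq2 with more replicates and its technical replicates as a batch. DESeq2 on the 24 runs was tried as an alternative. The labels do not say what a replicate number marks. The differences between replicates had a Pearson correlation of 0.326 to 0.508 between the 2 groups of an antibody and of 0.326 to 0.707 over 15 pairs of groups. The antibodies were compared with 1 block shared by them. P-values were adjusted by the Benjamini-Hochberg method over 21246 genes. SE is the log2FC divided by the square root of F. CPM uses TMM factors, and CPM per kb the GB length in GENCODE.

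Named are all 10 members, the 5 genes most like MYC and, of each list, the genes called with Y1P or otherwise up to 3 with the smallest p. NCL, NPM1, CCND2, RRS1, HSPE1, E2F6, MLXIP and MLXIPL were added after their values were seen. Members and lists were chosen with earlier results of these data known. Alternatives were other scalings, filters and blocks, DESeq2 1.42.0, removal of the length trend, separate fits and leaving out each replicate, where the lone pair is assumed to vary like the other antibodies. The scripts were tested on simulated data.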

Additional observations from a re-analysis of the deposited data

How the results depend on the processing

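Of the alternatives for the members' log2FC, 323 kept both direction and call, 13 gained a call, 14 lost one and 29 turned the sign, and DESeq2 on the same libraries gave no adjusted p for 11 more, MYCL with Y1P among them. With Y1P, MNT kept its sign in 13 alternatives (0.30 to 0.96) and was called in 10, MYCL in 12 (0.69 to 1.18) and called in 8, and MGA in 13 (-0.49 to -0.12) and called in 6. MYC with Y1P ranged from 0.044 to 0.53 and was called in 4 of 13.

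The 1 member called lower with Y1P became 0 with no replicate block, upper quartile factors, library totals alone, the stricter filter (at least 1 CPM in every library), the length trend removed or separate fits per antibody. The 2 called higher became 0 with no replicate block or with the length trend removed, 1 with DESeq2 on the same libraries and 4 with DESeq2 on the 24 runs as replicates. Leaving out a Y1P replicate gave 0 to 1 members lower and 0 to 1 higher. With S2P, DESeq2 on the 24 runs called 1 member lower and 2 higher, beside 2733 and 1282 of 18416 genes. No filter on low counts and separate fits each called 1 member higher, beside 344 of 40077 and 192 of 19599 genes. With S5P, no filter, DESeq2 on the 24 runs and separate fits each called 1 higher, which was MNT. These settings called 158 of 40077, 1114 of 18416 and 593 of 19359 genes higher. DESeq2 on the 24 runs called 1 member higher for S5P minus Y1P, where it called 1147 of 18416 genes higher and 229 lower. It counts runs that were summed here into 1 library as replicates.

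Sign changes with Y1P were those of MAX with upper quartiles (0.025), with totals alone (0.16), the stricter filter (0.022) and the length trend removed (0.0073), MXD1 with library totals (0.092) and MXD3 with the length trend removed (-0.066). Leaving out a Y1P replicate gave -0.22 to 0.028 for MXD1 and -0.53 to 0.081 for MLX, positive without replicate 2. With S2P they were those of MYC with the length trend removed (-0.040) and without a replicate (-0.13 to 0.41), MAX with library totals (0.013), MXD3 with the length trend removed (-0.030), MXI1 with library totals (0.058) and without a replicate (-0.32 to 0.080), and MLX with library totals (0.041) and without a replicate (-0.53 to 0.24). MXD1 with S2P, at -0.0047, turned with upper quartiles (0.056), totals alone (0.17), no filter (0.0047), the stricter filter (0.039), DESeq2 on the 24 runs (0.0048), separate fits (0.0057) and without a replicate (-0.22 to 0.18). With S5P, MYC turned with the length trend removed (-0.11) and without a replicate (-0.17 to 0.23), MGA with the length trend removed (0.026), and, without a replicate, MXD1 (-0.0073 to 0.10), MXI1 (-0.29 to 0.11) and MLX (-0.4996 to 0.24). The cause was not tested.

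Over all genes with Y1P, 909 lower and 931 higher became 2 and 0 with no replicate block, 385 and 1076 when scaled by upper quartiles, 49 and 1188 by library totals, 3999 and 2540 with DESeq2 on the 24 runs and 946 and 227 with DESeq2 on the same libraries. The count ranged from 0 to 2733 lower and 0 to 1282 higher with S2P, and from 0 to 1489 lower and 0 to 1114 higher with S5P. Library totals alone moved the median log2FC of all genes to 0.21 with Y1P and 0.19 with S2P. MYCL, at 35 to 99 counts per library, and MLX, at 64 to 175, are the members that depth limits most, and 2 libraries per group limit the precision of every member.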
